A study of Homo sapiens with 9 samples.

Results

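The genes described here are 47 enzymes and transporters of central carbon metabolism: 19 of glycolysis and lactate handling, 6 of the pentose phosphate pathway and 22 of the tricarboxylic acid (TCA) cycle and its pyruvate and malate side reactions. They were taken by gene symbol from the deposited gene table, which holds 61806 genes, and each of the 47 had 1 row in it. Messenger RNA was sequenced from 786-O cells, an established human cell line of clear cell renal carcinoma without functional VHL, the ubiquitin ligase subunit that marks hypoxia-inducible factors for destruction. All 3 groups are this parental line: a control, cells with TRIM28 silenced and cells with PARP1 silenced, with 3 libraries in each. The control is labelled both as parental and as transfected with a negative control reagent, and the reagents are called siRNA in one field and shRNA in another, so the kind of silencing is uncertain here. No time after transfection, dose or separate culture is given, so each p-value measures the spread between libraries alone, and that spread may be technical.

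Glycolysis splits glucose into pyruvate in the cytosol and yields ATP and NADH, and lactate dehydrogenase with the lactate exporter SLC16A3 clears the end product. The pentose phosphate pathway branches off glucose 6-phosphate to make NADPH and ribose phosphate, and the TCA cycle burns acetyl-CoA from pyruvate in the mitochondrion. In clear cell renal carcinoma, loss of VHL leaves hypoxia-inducible factors active, and many glycolytic genes are known targets of these factors. Which of these factors 786-O cells hold, and whether they act on the genes described here, was not tested. TRIM28 is a corepressor recruited by KRAB zinc finger proteins, and PARP1 consumes NAD+ to build poly(ADP-ribose) chains at DNA breaks.

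Library depth was 18042542 to 20224374 counts in control, 12840619 to 16346186 in the TRIM28 and 11963110 to 15629533 in the PARP1 libraries, so depth moved with the groups and its part in the results was not tested. Of the genes listed, 13562, the 47 enzyme genes among them, passed the filter on low counts. Values are relative to each library's other transcripts, so less RNA per cell and fewer cells cannot be told apart. Levels are FPKM computed from the deposited counts and exon lengths and scaled by TMM factors, which adjust for RNA composition. Changes are edgeR log2 fold changes ± a standard error. That error was computed as the absolute log2 fold change over the square root of edgeR's quasi-likelihood F statistic. "Rose" and "fell" stand for an adjusted p below 0.05, where adjusted p means edgeR's quasi-likelihood p after Benjamini-Hochberg adjustment over all genes tested. TRIM28 mRNA stood at 15.1% of the control mean in TRIM28 knockdown, and PARP1 mRNA at 3.11% in PARP1 knockdown. PARP1 mRNA also stood at 52.9% of control in TRIM28 knockdown, and TRIM28 mRNA at 124% of control in PARP1 knockdown. Of the renal epithelial markers, PAX8, KRT8 and KRT18 were abundant, with control means of 48.1, 94.0 and 142 FPKM. PAX2, CA9 and EPCAM were low, at 0.807, 0.752 and 0.247, and EPCAM was too low to be tested. The summed level of the 8 markers, mostly that of the abundant ones, ran from 275 to 328 in control, from 366 to 411 with TRIM28 silenced and from 425 to 521 with PARP1 silenced. KRT8 and KRT18 rose in both knockdowns, CDH6 and HAVCR1 fell in both, to 47.2% and 47.2% of control with TRIM28 silenced and 28.4% and 32.1% with PARP1 silenced, and PAX8 passed in neither. The summed level of 5 leukocyte markers never exceeded 1.22, with 3 of them at 0 in every library, that of 4 endothelial markers never exceeded 0.729 and that of 5 fibroblast markers never exceeded 0.684.

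Promoters are shown for members that the knockdowns moved apart: LDHA and PGK1, both textbook targets of hypoxia-inducible factors, and the 3 subunit genes of NAD-dependent isocitrate dehydrogenase. Each sequence is the 250 bases before a RefSeq start on GRCh38.p14, 5′ to 3′ on the gene's strand, with capitals marking ACGTG or GCGTG, the core of the hypoxia response element, on either strand (CACGT and CACGC are their complements, and CACGTG reads ACGTG on both). LDHA lies at chr11:18394313-18394562 on the plus strand, PGK1 at chrX:78103998-78104247 on the plus strand, IDH3A at chr15:78149112-78149361 on the plus strand, IDH3B at chr20:2664217-2664466 on the minus strand and IDH3G at chrX:153794376-153794625 on the minus strand.
LDHA: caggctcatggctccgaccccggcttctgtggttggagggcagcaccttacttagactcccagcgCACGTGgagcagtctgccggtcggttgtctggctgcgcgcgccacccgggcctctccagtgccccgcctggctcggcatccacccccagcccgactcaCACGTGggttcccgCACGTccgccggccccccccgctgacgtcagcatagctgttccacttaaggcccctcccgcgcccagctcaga
PGK1: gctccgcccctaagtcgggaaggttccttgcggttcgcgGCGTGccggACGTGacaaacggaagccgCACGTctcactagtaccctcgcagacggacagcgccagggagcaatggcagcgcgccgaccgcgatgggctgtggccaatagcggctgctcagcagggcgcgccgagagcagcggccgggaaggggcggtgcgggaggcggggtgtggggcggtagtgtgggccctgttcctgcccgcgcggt
IDH3A: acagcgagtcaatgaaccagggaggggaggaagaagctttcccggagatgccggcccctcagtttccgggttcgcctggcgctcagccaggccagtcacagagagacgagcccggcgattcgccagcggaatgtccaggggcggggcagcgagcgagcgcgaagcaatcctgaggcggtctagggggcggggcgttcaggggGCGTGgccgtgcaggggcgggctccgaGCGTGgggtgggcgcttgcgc
IDH3B: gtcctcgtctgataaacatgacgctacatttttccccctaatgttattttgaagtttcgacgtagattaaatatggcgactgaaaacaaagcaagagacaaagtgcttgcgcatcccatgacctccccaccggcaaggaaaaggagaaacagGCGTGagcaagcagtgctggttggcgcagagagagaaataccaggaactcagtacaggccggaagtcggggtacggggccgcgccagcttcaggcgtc
IDH3G: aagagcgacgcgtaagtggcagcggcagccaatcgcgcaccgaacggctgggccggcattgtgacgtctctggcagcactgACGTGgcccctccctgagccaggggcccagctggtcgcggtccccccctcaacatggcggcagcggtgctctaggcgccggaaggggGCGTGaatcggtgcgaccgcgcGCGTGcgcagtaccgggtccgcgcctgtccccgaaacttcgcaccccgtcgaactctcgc
With each CACGTG counted once per strand, the LDHA window held 5 matches, the PGK1 and IDH3G windows 3 each, IDH3A 2 and IDH3B 1. Another LDHA window, not shown, held 1 match. RefSeq windows were found for 46 of the 47 genes, 76 windows in all since several genes have more than 1 start. Either core occurred in 53.9% of the 76 windows and in 43.2% of all 35116 windows of this length. The windows had a median GC content of 66.8% against 58.0% for all windows. ACGTG alone occurred in 36.4% of the 44 glycolysis windows, 19.2% of the 26 TCA windows and 18.5% of all windows, and GCGTG in 27.3%, 53.9% and 32.2%, the reverse order of the 2 routes. Either core occurred in 52.3% of the glycolysis and 61.5% of the TCA windows. These shares count windows and not genes, so genes with several starts weigh more. HK1 and PFKM, for example, add many glycolysis windows, most of them without a match. Shares of genes were not counted, so the order of the routes by gene is not known here. A match is a description of letters and not a bound site.

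In PARP1 knockdown the 8 genes from ALDOA to PKM in the pathway's order (ALDOC apart) rose, both hexokinases and both lactate dehydrogenases fell, and the TCA members split into a rising and a larger falling set. Of the 47 members 21 rose and 18 fell, against 27.1% and 32.2% of all genes tested (59.3% in either direction). By route, 11 of 19 glycolysis members rose and 5 fell, 3 of 6 pentose phosphate members rose and 0 fell, and 7 of 22 TCA members rose and 13 fell. Median log2 fold changes were 0.44, 0.37 and -0.36 for the 3 routes and -0.07 over all genes tested. The groups did not overlap for 39 members, against 63.5% of all genes. Scaled by library totals in place of TMM factors, which lowers the median gene by a further 0.33 on the log2 scale, glycolysis counted 6 rises and 5 falls, pentose phosphate 3 and 1, and TCA 4 and 15.

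In TRIM28 knockdown fewer members passed the test, 24 against 39. Of the 47 members 14 rose and 10 fell, against 10.3% and 17.5% of all genes tested (27.8% in either direction). Rises and falls numbered 6 and 2 in glycolysis, 2 and 0 in the pentose phosphate pathway and 6 and 8 in the TCA route, with median log2 fold changes of 0.19, 0.31 and -0.07 against -0.02 over all genes. Scaled by library totals, which lowers the median gene by 0.16, glycolysis counted 3 rises and 3 falls and the TCA route 1 rise and 8 falls. The groups did not overlap for 31 members, against 46.4% of all genes. Both comparisons use the same 3 control libraries. In each case where a member passed the test in TRIM28 knockdown, it passed in the same direction in PARP1 knockdown, and a further 6 rises in glycolysis and pentose phosphate, 1 in the TCA route, and 8 falls passed in PARP1 knockdown alone.

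Many of the TRIM28 calls were lost when 1 library was left out, a fit that also has fewer libraries to measure the spread. No called member changed sign in such a fit. Without control replicate 1, 15 of the 24 calls were lost, leaving 1 glycolysis rise and 0 TCA rises. Without control replicate 2, 13 calls were lost, again leaving 1 glycolysis rise and 0 TCA rises. Without TRIM28 knockdown replicate 1, 3 TCA rises were left, and without TRIM28 knockdown replicate 2, 3 glycolysis and 2 TCA rises. The 8 members called in each fit that left out 1 library were HK2, TALDO1, DLAT, DLD, SUCLG2, SUCLA2, ME1 and ME2, of which only TALDO1 rose, and the other 16 each lost their call without at least 1 library. In PARP1 knockdown 34 of the 39 calls stood in each such fit, and the other 5 were PFKP, PDHA1, PDHB, DLST and FH.

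**Figure D1:**
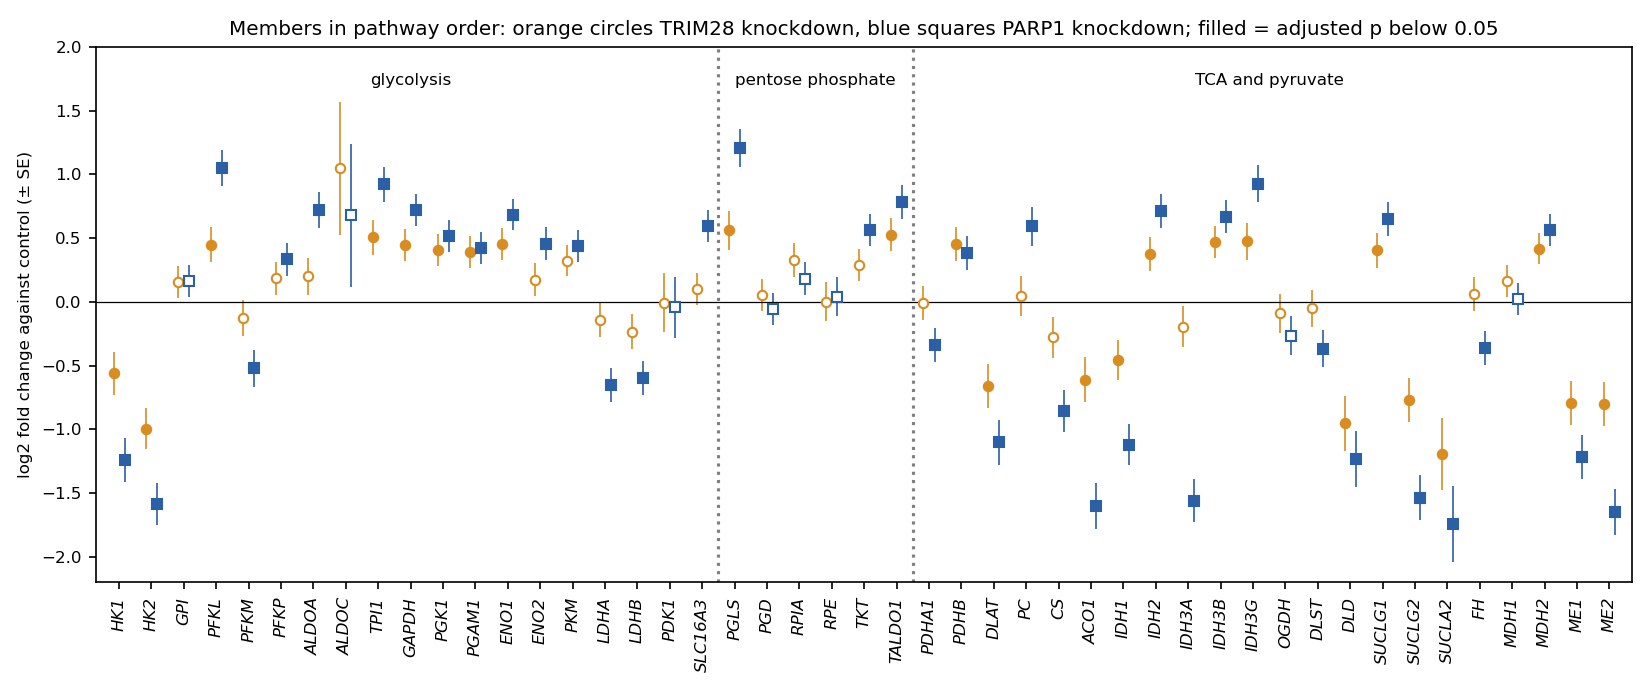
Log2 fold change against control (y axis, ± standard error) for the 47 members in pathway order (x axis), with TRIM28 knockdown as orange circles and PARP1 knockdown as blue squares. Filled symbols passed an adjusted p of 0.05, 24 of them in TRIM28 and 39 in PARP1 knockdown. The squares run from -1.74 for SUCLA2 to 1.21 for PGLS.

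Transcript lengths and base composition moved with these changes. Over all genes tested, the median log2 fold change in PARP1 knockdown was 0.65 for the shortest 10% and -0.67 for the longest 10%. In TRIM28 knockdown the same medians were 0.33 and -0.39. Ribosomal protein genes, which are short, had 11.6% ± 0.83 of all reads in control, 14.6% ± 0.896 with TRIM28 silenced and 17.2% ± 2.18 with PARP1 silenced (SD, n = 3 each). Across the 47 members, which share the same libraries, the PARP1 log2 fold change had a Spearman rho of 0.71 with GC content and -0.39 with exon length, and the TRIM28 change 0.61 and -0.45. Members that rose in PARP1 knockdown had a median GC content of 55.9% and those that fell 43.9%. The routes themselves differed, with a median GC content of 53.1% in glycolysis, 54.4% in the pentose phosphate pathway and 45.2% in the TCA route against 48.6% over all genes tested. With both trends removed from each library, PARP1 knockdown counted 11 rises and 3 falls in glycolysis, 3 and 0 in the pentose phosphate pathway, and 6 and 10 in the TCA route, and TRIM28 knockdown 5 and 2, 1 and 0, and 5 and 3. The part of length and GC content in single members was not tested beyond this. In TRIM28 knockdown 13 of the 24 calls were lost this way and 5 members passed anew. In PARP1 knockdown 8 calls were lost with the sign kept, 3 members passed anew with the sign kept, and 4 members turned sign. The 11 glycolysis rises there then held GPI and PDK1 but no longer GAPDH and PGAM1. The values are given beside the members.

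Hexokinases, which trap glucose in the cell as glucose 6-phosphate, were the glycolysis members with the largest falls. HK1 (chr10:69269984-69401884, plus strand) stood at 73.3, 79.3 and 72.9 FPKM in control, 47.8, 49.8 and 55.2 with TRIM28 silenced and 44, 30.1 and 21.5 with PARP1 silenced. HK2 (chr2:74834127-74893359, plus strand), the isoform most often raised in tumours, stood at 10.9, 11 and 8.19 in control, 5.03, 5.21 and 4.90 with TRIM28 silenced and 3.98, 3.54 and 2.47 with PARP1 silenced. For both genes each control library lay above each TRIM28 library, and each TRIM28 library above each PARP1 library. HK2 fell by 0.99 ± 0.16 in TRIM28 knockdown (edgeR adjusted p = 7.25e-05) and by 1.58 ± 0.17 in PARP1 knockdown (edgeR adjusted p = 2.29e-08), 1.99-fold and 2.99-fold. HK1 fell by 0.56 ± 0.17 and 1.24 ± 0.17, the first with an edgeR adjusted p of 0.0155 that no longer passed without control replicate 1 or 2, nor without TRIM28 replicate 1 or 2, and was 0.059 and 0.0733 without the 2 controls. HK2 made up 11.8% ± 1.47 of the summed hexokinase level in control, 9.05% ± 0.781 with TRIM28 silenced and 9.73% ± 1.23 with PARP1 silenced (SD, n = 3). The HK2 share was lower in each TRIM28 library than in each control library (exact two-sided permutation p = 0.1, the smallest possible) and overlapped control with PARP1 silenced.

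GPI, which converts glucose 6-phosphate to fructose 6-phosphate, ranged from 18.2 to 23.2 FPKM over the 9 libraries and passed the test in neither knockdown (0.16 ± 0.13 in both). GPI passed in both once length and GC trends were removed, at 0.39 and 0.61 (edgeR adjusted p = 0.0153 and 0.000165), and by library totals the PARP1 value was -0.16.

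Phosphofructokinase, the committed step of glycolysis, changed its isoform make-up. PFKL (chr21:44300051-44327376, plus strand), the liver form, stood at 14.9, 15.7 and 18.1 FPKM in control, 19.6, 24.1 and 23 with TRIM28 silenced and 28.5, 32.7 and 39.9 with PARP1 silenced. PFKM (chr12:48105139-48146404, plus strand), the muscle form, stood at 13.2, 13.7 and 13.7, at 12.2, 13 and 12, and at 12, 8.62 and 7.59 in the same order. PFKP (chr10:3066333-3137718, plus strand), the platelet form and the most abundant of the 3, stood at 159, 169 and 187, at 171, 207 and 210, and at 236, 206 and 209. PFKL therefore rose through both knockdowns with no overlap between groups, while PFKM was lower and PFKP higher in each PARP1 library than in each control library. In PARP1 knockdown PFKL rose by 1.05 ± 0.14 (edgeR adjusted p = 8.73e-07), PFKM fell by 0.52 ± 0.14 and PFKP rose by 0.34 ± 0.13, the last lost without any 1 of control replicates 1 and 2 and PARP1 replicate 1 (edgeR adjusted p up to 0.0755). In TRIM28 knockdown only PFKL of the 3 passed, at 0.45 ± 0.14 (edgeR adjusted p = 0.0192), a call lost without each of 4 libraries (up to 0.0998 without control replicate 1). The share of PFKL in the summed level was 8.04% ± 0.194, 9.64% ± 0.238 and 13% ± 2.61 in the 3 groups, and that of PFKM 6.72% ± 0.426, 5.42% ± 0.564 and 3.6% ± 0.704 (SD, n = 3). Neither share overlapped between control and either knockdown, with an exact two-sided permutation p of 0.1, the smallest that 3 against 3 libraries allow. With length and GC trends removed PFKM stood at -0.12 in PARP1 knockdown and no longer passed (edgeR adjusted p = 0.418). By library totals PFKP stood at 0.02 there and did not pass (edgeR adjusted p = 0.917).

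Aldolase splits fructose 1,6-bisphosphate, and ALDOA (chr16:30064164-30070457, plus strand) carried nearly all of its summed level in each library. ALDOA stood at 48.1, 55.5 and 51.8 FPKM in control, 50.5, 59.6 and 68.4 with TRIM28 silenced and 75.5, 77.5 and 103 with PARP1 silenced. The TRIM28 libraries overlapped control (0.20 ± 0.14), and the PARP1 libraries all lay higher. ALDOA rose by 0.72 ± 0.14 in PARP1 knockdown (edgeR adjusted p = 1.27e-04). ALDOC (chr17:28573115-28576948, minus strand), the brain form, was low, from 0.127 to 0.397 FPKM over all libraries, shares its span with RSKR on the same strand, and passed in neither comparison.

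The steps from triose phosphate to pyruvate held the most abundant transcripts of the set, and TPI1, GAPDH, PGK1, PGAM1, ENO1, ENO2 and PKM each rose in PARP1 knockdown. By library totals PGK1, PGAM1, ENO2 and PKM did not pass there. TPI1 (chr12:6867119-6870948, plus strand), which interconverts the triose phosphates, stood at 949, 980 and 1179 FPKM in control, 1417, 1509 and 1487 with TRIM28 silenced and 1608, 2007 and 2285 with PARP1 silenced. GAPDH (chr12:6534512-6538374, plus strand), the NADH-producing step, stood at 3583, 3713 and 4333, at 5151, 5374 and 5322, and at 5757, 6400 and 6992. The 3 groups did not overlap for either gene and kept the same order. TPI1 rose by 0.51 ± 0.14 and 0.92 ± 0.14 (edgeR adjusted p = 0.00817 and 3.28e-06), and GAPDH by 0.45 ± 0.13 and 0.72 ± 0.13 (edgeR adjusted p = 0.0103 and 2.54e-05). The GAPDH call in TRIM28 knockdown was lost without control replicate 1 or 2 (edgeR adjusted p = 0.0555 and 0.0577), and that of TPI1 without control replicate 1 (edgeR adjusted p = 0.0504). After removal of the length and GC trends, GAPDH stood at 0.07 in TRIM28 and -0.05 in PARP1 knockdown and TPI1 at 0.19 and 0.31, with only the TPI1 value in PARP1 knockdown still passing (edgeR adjusted p = 0.0251). Counts on the annotated pseudogenes were 1.62% of the TPI1 counts and 0.229% of the GAPDH counts, so little was split off to them by name.

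PGK1 (chrX:77910739-78129295, plus strand), the first ATP-yielding kinase, stood at 259, 272 and 319 FPKM in control, 380, 382 and 367 with TRIM28 silenced and 384, 400 and 432 with PARP1 silenced. It rose by 0.41 ± 0.13 and 0.51 ± 0.13 (edgeR adjusted p = 0.0174 and 0.00101), and with length and GC trends removed by 0.70 and 1.10. The TRIM28 call of PGK1 was lost without each of 4 libraries (edgeR adjusted p up to 0.093 without control replicate 1). PGAM1, the mutase that follows, ran from 366 to 451 in control, from 517 to 530 with TRIM28 silenced and from 530 to 543 with PARP1 silenced, rises of 0.39 ± 0.12 and 0.42 ± 0.12 that did not pass with both trends removed (0.17 and 0.08).

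Enolase makes phosphoenolpyruvate, and ENO1 (chr1:8861000-8879190, minus strand) carried nearly all of its summed level. ENO1 stood at 1377, 1439 and 1663 FPKM in control, 1938, 2078 and 2124 with TRIM28 silenced and 2234, 2429 and 2542 with PARP1 silenced. It rose by 0.45 ± 0.12 and 0.69 ± 0.12 (edgeR adjusted p = 0.0085 and 3.95e-05), and with length and GC trends removed it still rose, by 0.49 and 0.83. ENO2 (chr12:6913745-6923698, plus strand), the neuronal form, stood at 17.8, 18.5 and 21.9, at 20.7, 22.8 and 22.2, and at 27.5, 26.4 and 26, and rose in PARP1 knockdown alone of the comparisons with control (0.46 ± 0.13, edgeR adjusted p = 0.00342, against 0.18 ± 0.13 in TRIM28 knockdown). The difference between the knockdowns did not pass for ENO2 (0.28 ± 0.13, edgeR adjusted p = 0.109). PKM, pyruvate kinase, ran from 691 to 814, from 847 to 965 and from 978 to 1014 in the 3 groups. PKM rose by 0.44 ± 0.12 in PARP1 knockdown (edgeR adjusted p = 0.00343), and its value of 0.32 ± 0.12 in TRIM28 knockdown missed the threshold (edgeR adjusted p = 0.0507) but passed at 0.51 with length and GC trends removed (edgeR adjusted p = 0.00245).

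Lactate dehydrogenase, which regenerates NAD+ by reducing pyruvate, went the other way. LDHA (chr11:18394560-18408425, plus strand) stood at 330, 313 and 309 FPKM in control, 310, 279 and 275 with TRIM28 silenced and 222, 222 and 163 with PARP1 silenced. LDHB (chr12:21635342-21757857, minus strand) stood at 81.4, 80.0 and 79.4, at 78.5, 59.6 and 66.8, and at 53.2, 59.9 and 46. Each PARP1 library lay below each control library for both genes. In PARP1 knockdown LDHA fell by 0.65 ± 0.13 (edgeR adjusted p = 1.86e-04) and LDHB by 0.60 ± 0.14 (edgeR adjusted p = 5.11e-04), and neither passed in TRIM28 knockdown (-0.14 ± 0.13 and -0.23 ± 0.13). LDHA made up 79.8% ± 0.368 of the summed level in control, 80.9% ± 1.37 with TRIM28 silenced and 79.1% ± 1.37 with PARP1 silenced (SD, n = 3), with overlap between all groups. LDHA and PGK1, whose promoters are printed above, thus changed in opposite directions in PARP1 knockdown. With length and GC trends removed LDHA stood at -0.00 (edgeR adjusted p = 0.992) and LDHB at -0.47 (edgeR adjusted p = 0.00181).

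SLC16A3, the lactate exporter MCT4, stood at 35.5, 38.3 and 42.6 FPKM in control, 39.5, 41.1 and 44.4 with TRIM28 silenced and 53.6, 58.2 and 64.1 with PARP1 silenced. It rose in PARP1 knockdown (0.60 ± 0.13, edgeR adjusted p = 2.86e-04) and not in TRIM28 knockdown (0.10 ± 0.13), and the difference between the knockdowns passed (0.49 ± 0.13, edgeR adjusted p = 0.00706, and 0.0506 without TRIM28 replicate 1). Its gene overlaps CSNK1D on the opposite strand, whose counts were 64.0% of its own. PDK1, the kinase that shuts pyruvate dehydrogenase, was low at 0.245 to 0.386 FPKM in all 9 libraries and passed in neither comparison (-0.01 ± 0.23 and -0.04 ± 0.24). Once the length and GC trends were removed, it stood at 0.90 in PARP1 knockdown and passed (edgeR adjusted p = 0.00134).

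**Figure D2:**
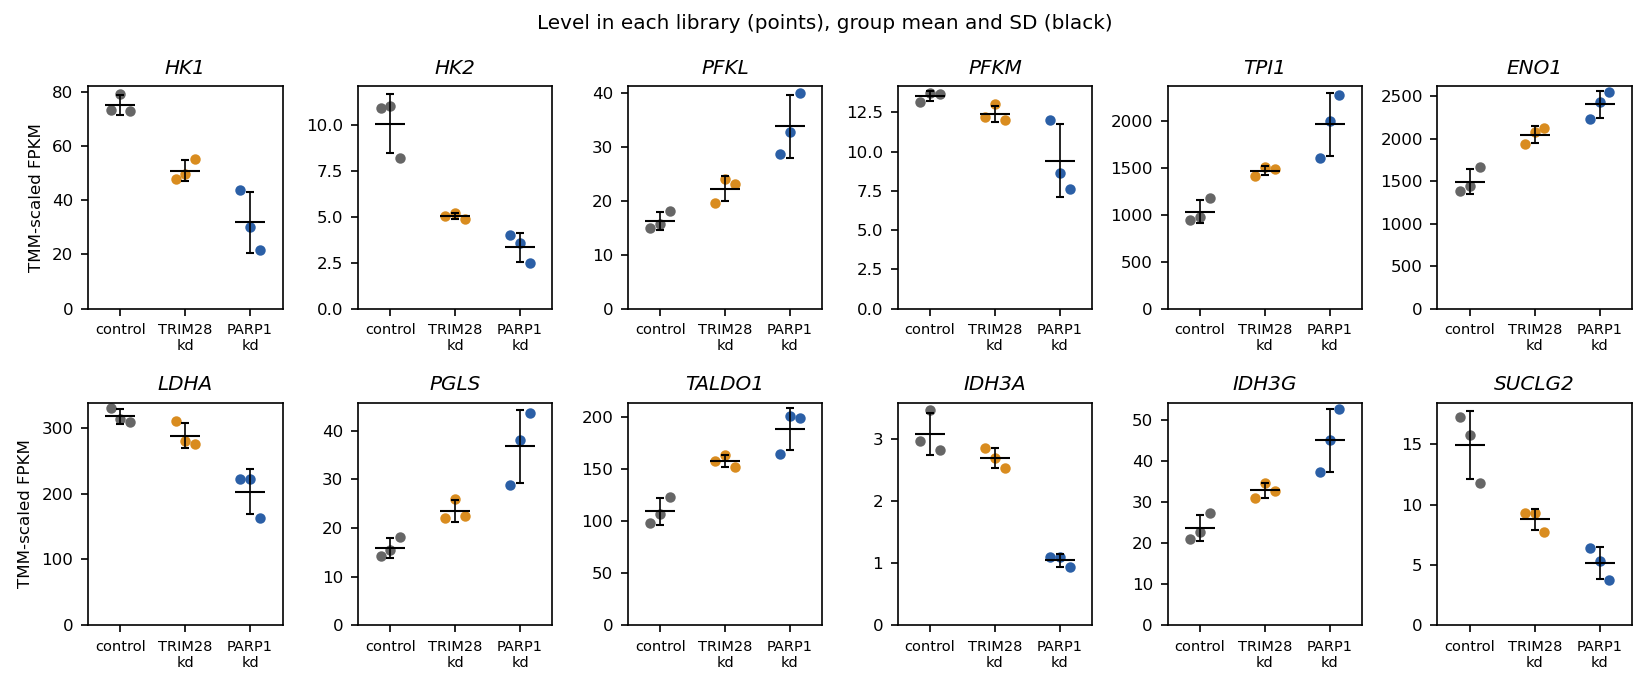
Level in TMM-scaled FPKM (y axes, each starting at 0) of 12 members in each library (points) with the group mean and SD in black, for control, TRIM28 knockdown and PARP1 knockdown (x axes). TPI1 climbs from 949 to 1179 in control to 1608 to 2285 in PARP1 knockdown while LDHA drops from 309 to 330 to 163 to 222.

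In the pentose phosphate pathway PGLS and TALDO1 rose in both knockdowns and TKT in PARP1 knockdown. PGLS (chr19:17511636-17521288, plus strand), which opens the lactone of the oxidative branch, stood at 14.1, 15.5 and 18.2 FPKM in control, 22.1, 26 and 22.4 with TRIM28 silenced and 28.8, 38.1 and 43.7 with PARP1 silenced. TALDO1 (chr11:747415-765012, plus strand), transaldolase, stood at 98.1, 107 and 123, at 157, 163 and 152, and at 165, 201 and 199. The 3 groups did not overlap for either gene. PGLS rose by 0.56 ± 0.15 and 1.21 ± 0.15 (edgeR adjusted p = 0.00734 and 2.95e-07), the largest rise of the set in PARP1 knockdown, and the difference between the knockdowns passed (0.65 ± 0.15, edgeR adjusted p = 0.00335). TALDO1 rose by 0.53 ± 0.13 and 0.78 ± 0.13 (edgeR adjusted p = 0.00444 and 1.51e-05). With length and GC trends removed, the PARP1 values of PGLS and TALDO1 shrank to 0.43 and 0.27 and still passed (edgeR adjusted p = 0.00484 and 0.0401), and the TRIM28 values of 0.23 and 0.25 did not. The PGLS difference between the knockdowns was then 0.21 and did not pass (edgeR adjusted p = 0.241).

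TKT (chr3:53224712-53256052, minus strand), transketolase, stood at 185, 193 and 226 FPKM in control, 225, 258 and 254 with TRIM28 silenced and 286, 294 and 313 with PARP1 silenced. TKT rose in PARP1 knockdown (0.56 ± 0.13, edgeR adjusted p = 4.58e-04) and its 0.29 ± 0.13 in TRIM28 knockdown did not pass (edgeR adjusted p = 0.0883), though it did at 0.42 with length and GC trends removed (edgeR adjusted p = 0.0105). The other 3 members passed in neither comparison. PGD, the second NADPH-producing dehydrogenase, ranged from 108 to 129 over the 9 libraries. RPIA, the isomerase that makes ribose 5-phosphate, lay higher in each knockdown library than in control, at 0.33 ± 0.13 in TRIM28 knockdown (edgeR adjusted p = 0.0601) and 0.18 ± 0.13 in PARP1 knockdown, the latter -0.14 by library totals and -0.08 with length and GC trends removed. RPE, the epimerase, ranged from 6.95 to 9.60 with full overlap.

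Pyruvate enters the mitochondrial cycle through the pyruvate dehydrogenase complex, whose subunits parted. PDHB (chr3:58427630-58433857, minus strand), the beta subunit of its first enzyme, stood at 16.1, 16.1 and 17.6 FPKM in control, 24.5, 23.1 and 20.6 with TRIM28 silenced and 18.6, 23.1 and 23.2 with PARP1 silenced. DLAT (chr11:112025408-112064404, plus strand), the acetyltransferase core, stood at 3.56, 3.53 and 3.30, at 2.40, 2.13 and 2.04, and at 2.01, 1.66 and 1.13. PDHA1, the alpha subunit of the first enzyme, ran from 21.5 to 23.2 in control, from 21.7 to 23.8 with TRIM28 silenced and from 14.7 to 19.7 with PARP1 silenced. PDHB was higher and DLAT lower than control in each knockdown library. DLAT fell by 0.66 ± 0.17 and 1.10 ± 0.18 (edgeR adjusted p = 0.00645 and 9.05e-06), PDHB rose by 0.45 ± 0.13 and 0.38 ± 0.13 (edgeR adjusted p = 0.0126 and 0.0149), and PDHA1 fell by 0.34 ± 0.13 in PARP1 knockdown only of the comparisons with control. DLAT's share of the summed level of the 3 subunits was 8.14% ± 0.569 in control, 4.62% ± 0.105 with TRIM28 silenced and 3.88% ± 1.05 with PARP1 silenced (SD, n = 3), and PDHB's was 38.9% ± 1.25, 47.9% ± 1.55 and 52.8% ± 6.58, without overlap of either knockdown with control. The PDHA1 call was lost without each of 6 libraries, most so without PARP1 replicate 3 (edgeR adjusted p = 0.155), and the PARP1 call of PDHB without PARP1 replicate 2 (edgeR adjusted p = 0.0741). After removal of the length and GC trends, DLAT stood at -0.23 in TRIM28 and -0.31 in PARP1 knockdown and no longer passed in either (edgeR adjusted p = 0.287 and 0.0998). PDHA1 then stood at 0.11 in PARP1 knockdown, and PDHB rose there by 0.89. The TRIM28 call of PDHB was lost without each of 3 libraries (edgeR adjusted p up to 0.0627 without control replicate 2). By library totals PDHB passed in neither knockdown, at 0.30 in TRIM28 and 0.05 in PARP1 knockdown (edgeR adjusted p = 0.0715 and 0.738).

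DLD (chr7:107891162-107931730, plus strand), the dihydrolipoyl dehydrogenase that the pyruvate and oxoglutarate complexes share, stood at 4.02, 3.81 and 2.31 FPKM in control, 1.96, 1.53 and 1.72 with TRIM28 silenced and 1.05, 1.69 and 1.61 with PARP1 silenced. It fell by 0.95 ± 0.21 and 1.23 ± 0.22 (edgeR adjusted p = 0.00207 and 3.49e-05), but LAMB1 overlaps it on the opposite strand with 740.6% of its counts, and whether the counting used strand is unknown here. PC, pyruvate carboxylase, which refills oxaloacetate, stood at 4.36, 4.38 and 4.54, at 3.63, 4.44 and 5.65, and at 6.39, 6.00 and 7.70. PC rose in PARP1 knockdown (0.59 ± 0.15, edgeR adjusted p = 0.0018) and differed between the knockdowns (0.55 ± 0.16, edgeR adjusted p = 0.012, and 0.11 without TRIM28 replicate 1 and 0.0599 without PARP1 replicate 3). By library totals neither PC value passed, at 0.27 and 0.37 (edgeR adjusted p = 0.166 and 0.101). With length and GC trends removed both passed, at 0.45 and 0.40 (edgeR adjusted p = 0.00526 and 0.0352).

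The entry of the cycle fell in PARP1 knockdown at citrate synthase and cytosolic aconitase. CS (chr12:56271699-56300391, minus strand) stood at 35.8, 36.6 and 35.5 FPKM in control, 27.5, 28.5 and 33 with TRIM28 silenced and 26.7, 18.8 and 14.1 with PARP1 silenced. ACO1 (chr9:32384603-32454769, plus strand), the cytosolic aconitase that doubles as an iron regulatory protein, stood at 19.9, 19.5 and 17.7, at 13.5, 11.6 and 12.3, and at 8.69, 6.06 and 3.98. All 3 groups were apart for both genes. ACO1 fell by 0.61 ± 0.17 and 1.60 ± 0.18 (edgeR adjusted p = 0.0113 and 6.55e-08), and CS by 0.85 ± 0.16 in PARP1 knockdown (edgeR adjusted p = 7.55e-05), its -0.28 ± 0.16 in TRIM28 knockdown not passing. With length and GC trends removed the PARP1 values were -0.87 for ACO1 and -0.38 for CS, and both passed (edgeR adjusted p = 0.000167 and 0.0242). The TRIM28 call of ACO1 was lost with the trends removed, at -0.23 (edgeR adjusted p = 0.312), and without control replicate 1 or TRIM28 replicate 2 (edgeR adjusted p = 0.0687 and 0.0712).

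Isocitrate dehydrogenases of the NADP-dependent kind changed in opposite directions. IDH1 (chr2:208236229-208266074, minus strand), the cytosolic NADP form, stood at 11.6, 10.3 and 9.85 FPKM in control, 9.35, 7.04 and 6.76 with TRIM28 silenced and 5.41, 5.29 and 3.87 with PARP1 silenced. IDH2 (chr15:90083045-90102477, minus strand), the mitochondrial NADP form, stood at 16.5, 16.6 and 21.2, at 23.5, 23.2 and 23.8, and at 27.7, 29.2 and 32.4. IDH1 fell and IDH2 rose step by step over the groups, with no overlap for either. IDH1 fell by 0.46 ± 0.15 and 1.12 ± 0.16 (edgeR adjusted p = 0.0292 and 1.79e-06), and IDH2 rose by 0.37 ± 0.13 and 0.72 ± 0.13 (edgeR adjusted p = 0.0381 and 5.93e-05). The TRIM28 call of IDH1 was lost without each of 4 libraries and that of IDH2 without each of 6. Without control replicate 1 the edgeR adjusted p was 0.176 for IDH1 and 0.166 for IDH2. IDH1 made up 37.1% ± 4.91 of the summed level of both in control, 24.6% ± 3.39 with TRIM28 silenced and 14.1% ± 3.02 with PARP1 silenced (SD, n = 3), without overlap (exact two-sided permutation p = 0.1 for each knockdown, the smallest possible). Once the length and GC trends were removed, IDH1 still fell in PARP1 knockdown, by 0.60, and IDH2 stood at 0.21 and did not pass (edgeR adjusted p = 0.0919). In TRIM28 knockdown neither then passed, with IDH1 at -0.20 and IDH2 at 0.10 (edgeR adjusted p = 0.277 and 0.529).

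The NAD-dependent enzyme, the form that runs the cycle forward, is built from a catalytic alpha subunit, IDH3A, and the subunits IDH3B and IDH3G. IDH3A (chr15:78131498-78171945, plus strand) stood at 2.97, 3.46 and 2.82 FPKM in control, 2.86, 2.7 and 2.54 with TRIM28 silenced and 1.10, 1.10 and 0.928 with PARP1 silenced. IDH3B (chr20:2658395-2664219, minus strand) stood at 70.7, 72.1 and 84.5, at 103, 109 and 104, and at 107, 126 and 129. IDH3G (chrX:153785766-153794512, minus strand) stood at 21.1, 22.6 and 27.3, at 31, 34.7 and 32.8, and at 37.3, 45.2 and 52.6. The alpha subunit thus overlapped control with TRIM28 silenced and lay below it with PARP1 silenced, while the other 2 subunits lay above control in both. IDH3A fell by 1.56 ± 0.17 in PARP1 knockdown (edgeR adjusted p = 4.86e-08) against -0.19 ± 0.16 in TRIM28 knockdown (edgeR adjusted p = 0.38). The difference of -1.36 ± 0.17 between the knockdowns (edgeR adjusted p = 1.37e-05) was the largest among the 47 members and the only one to pass under each alternative run. IDH3B rose by 0.47 ± 0.13 and 0.67 ± 0.13, and IDH3G by 0.47 ± 0.14 and 0.93 ± 0.14, the last with an edgeR adjusted p of 4.88e-06. IDH3A made up 3.04% ± 0.541, 1.92% ± 0.15 and 0.635% ± 0.125 of the summed level of the 3 subunits (SD, n = 3). With length and GC trends removed IDH3A still fell in PARP1 knockdown, by 0.83 (edgeR adjusted p = 8.28e-05), while IDH3B and IDH3G stood at 0.19 and 0.14 there and at 0.20 and 0.12 in TRIM28 knockdown, and did not pass in either. The IDH3G difference between the knockdowns was then 0.02. SSR4 overlaps IDH3G on the opposite strand with 352.5% of its counts.

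The oxoglutarate dehydrogenase complex makes succinyl-CoA, and besides the shared DLD it has the subunits OGDH and DLST. OGDH, its first enzyme, ranged from 26.4 to 41.3 FPKM over all libraries and did not pass (-0.09 ± 0.15 and -0.26 ± 0.15), and DLST, its core, fell by 0.37 ± 0.15 in PARP1 knockdown with overlapping groups (edgeR adjusted p = 0.033). The DLST call was lost without each of 7 libraries, with an edgeR adjusted p up to 0.185 without control replicate 3. It was also lost with DESeq2 (adjusted p = 0.0617) and with length and GC trends removed, at -0.26 (edgeR adjusted p = 0.0689). OGDH passed in PARP1 knockdown with the trends removed, at -0.40, and by library totals, at -0.57 (edgeR adjusted p = 0.0149 and 0.0112).

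Succinyl-CoA ligase pairs a common alpha subunit, SUCLG1, with a GTP-forming beta subunit, SUCLG2, or an ATP-forming one, SUCLA2. SUCLG1 (chr2:84423528-84460045, minus strand) stood at 26.6, 25.9 and 30.8 FPKM in control, 38.7, 37.4 and 34.1 with TRIM28 silenced and 37.1, 46.1 and 47.9 with PARP1 silenced. SUCLG2 (chr3:67360460-67654612, minus strand) stood at 17.3, 15.8 and 11.8, at 9.31, 9.27 and 7.75, and at 6.37, 5.29 and 3.72. SUCLA2 (chr13:47745736-48037968, minus strand) was low, at 0.764, 0.633 and 0.638, at 0.252, 0.440 and 0.210, and at 0.164, 0.267 and 0.178. The alpha subunit was higher and both beta subunits lower than control in each knockdown library. SUCLG1 rose by 0.40 ± 0.13 and 0.65 ± 0.13 (edgeR adjusted p = 0.0265 and 1.81e-04), the first lost without each of 4 libraries (edgeR adjusted p up to 0.123 without control replicate 2). SUCLG2 fell by 0.77 ± 0.17 and 1.53 ± 0.18 (edgeR adjusted p = 0.00198 and 1.2e-07). SUCLA2 fell by 1.19 ± 0.28 and 1.74 ± 0.30, the largest falls of the set in both knockdowns (edgeR adjusted p = 0.00291 and 2.09e-05). SUCLG1 took 64.0% ± 6.27 of the summed level in control, 80.2% ± 0.834 with TRIM28 silenced and 88.9% ± 3.75 with PARP1 silenced (SD, n = 3). SUCLG2 still fell by 1.30 and SUCLG1 still rose by 1.05 in PARP1 knockdown with length and GC trends removed, and SUCLA2 fell by 0.90. The TRIM28 value of SUCLA2 was then -0.71 and did not pass (edgeR adjusted p = 0.0586). Another gene overlaps SUCLA2 on the opposite strand, which makes the SUCLA2 values uncertain.

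FH, fumarase, ran from 13.3 to 14 FPKM in control, from 13.6 to 14.9 with TRIM28 silenced and from 8.71 to 12 with PARP1 silenced, where it fell by 0.36 ± 0.13 (edgeR adjusted p = 0.0232). The FH call was lost without each of 6 libraries, with an edgeR adjusted p up to 0.125 without PARP1 replicate 3. With length and GC trends removed its sign turned, to 0.50, and it passed as a rise in both knockdowns, at 0.53 with TRIM28 silenced (edgeR adjusted p = 0.00641 there and 0.00307 in PARP1 knockdown). Malate dehydrogenase closes the cycle. MDH1 (chr2:63588609-63607197, plus strand), the cytosolic form, stood at 27.2, 26.4 and 26.7, at 32.7, 28.1 and 29.3, and at 26.7, 29.1 and 25.9, and passed in neither comparison (0.16 ± 0.13 and 0.02 ± 0.13), though it did in both with the trends removed, at 0.38 and 0.52, and at -0.30 in PARP1 knockdown by library totals. MDH2 (chr7:76048051-76067508, plus strand), the mitochondrial form, stood at 110, 110 and 134, at 154, 158 and 160, and at 172, 177 and 173. MDH2 was higher in each knockdown library, and rose by 0.42 ± 0.13 and 0.56 ± 0.13 (edgeR adjusted p = 0.0149 and 4.26e-04), the first lost without each of 3 libraries (edgeR adjusted p up to 0.0951 without control replicate 2). By library totals MDH2 passed in neither knockdown, at 0.26 and 0.24 (edgeR adjusted p = 0.0748 and 0.0595). MDH1 took 18.6% ± 1.75 of the summed level in control and 13.5% ± 0.573 in PARP1 knockdown (SD, n = 3), without overlap.

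Malic enzymes, which turn malate to pyruvate, fell as a pair. ME1 (chr6:83210402-83431051, minus strand), the cytosolic NADPH source, stood at 9.2, 9.27 and 7.14 FPKM in control, 5.30, 4.25 and 5.20 with TRIM28 silenced and 4.39, 3.67 and 2.88 with PARP1 silenced. ME2 (chr18:50879080-50954257, plus strand), the mitochondrial form, stood at 2.68, 2.57 and 1.90, at 1.52, 1.29 and 1.29, and at 0.817, 0.899 and 0.554. Neither knockdown overlapped control for either gene. ME1 fell by 0.79 ± 0.17 and 1.22 ± 0.17 (edgeR adjusted p = 0.00137 and 2.04e-06), and ME2 by 0.80 ± 0.17 and 1.65 ± 0.18 (edgeR adjusted p = 0.00131 and 4.26e-08). ME1 and HK2 were the 2 members whose TRIM28 calls stood under each alternative run. After removal of the length and GC trends, the ME1 falls were 0.66 and 0.97, and the ME2 value in TRIM28 knockdown, -0.21, did not pass (edgeR adjusted p = 0.299). The ME2 fall in PARP1 knockdown shrank to 0.65 and still passed (edgeR adjusted p = 0.00127).

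**Figure D3:**
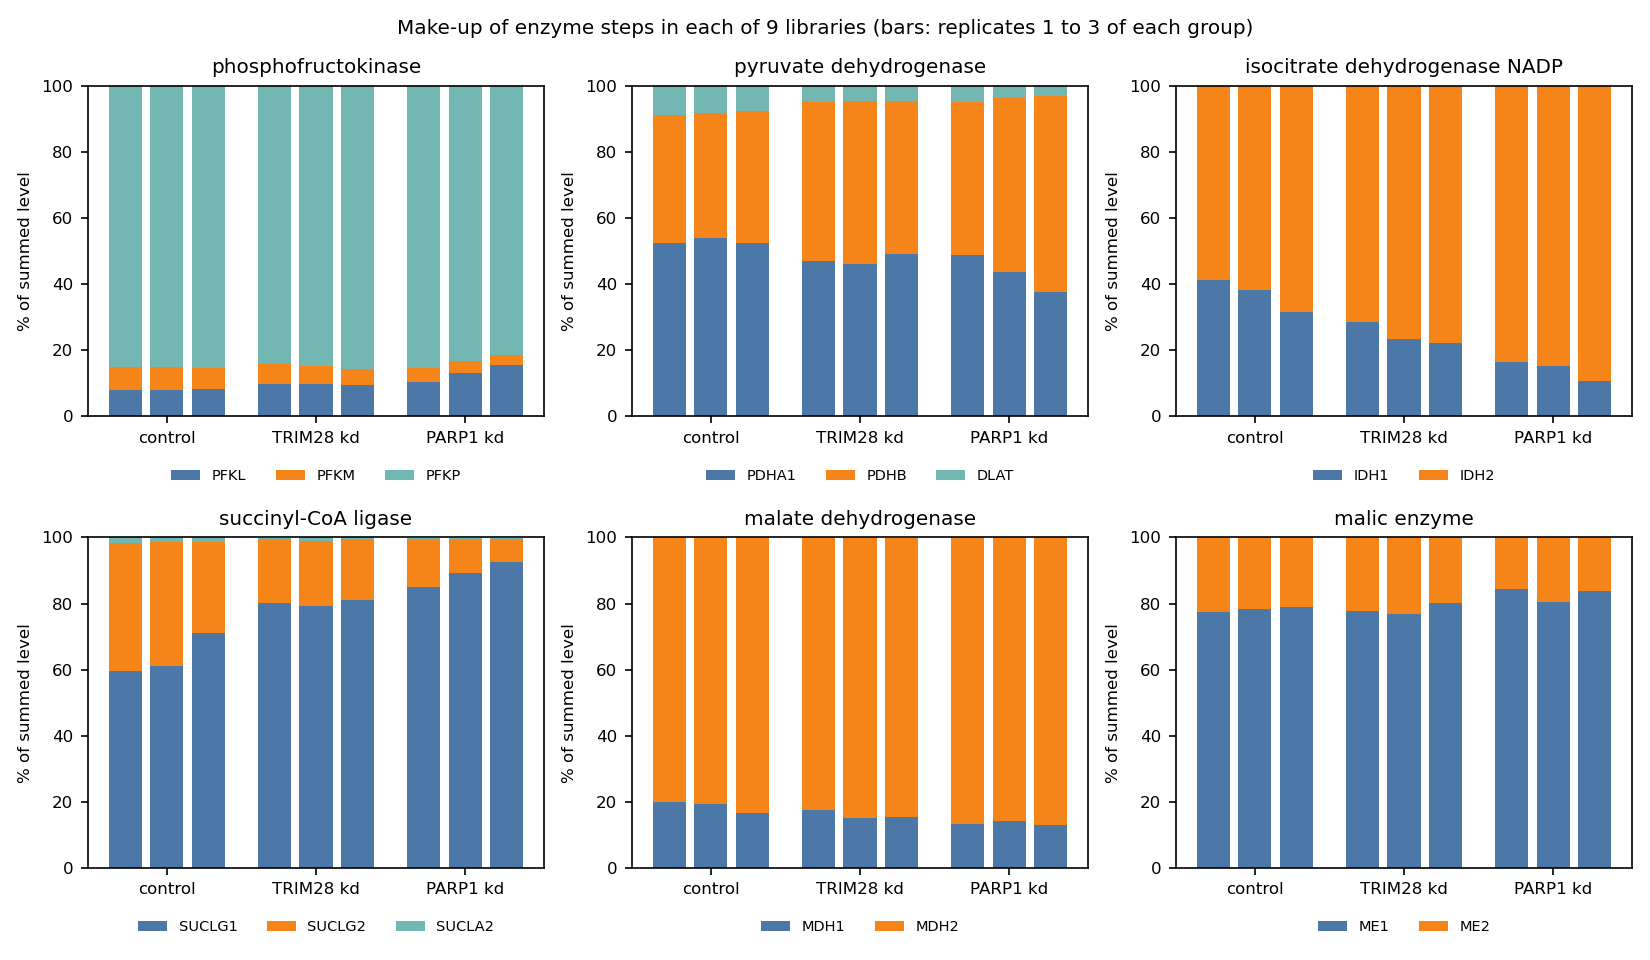
Share of each isoenzyme or subunit in the summed level of 6 enzyme steps (y axes, percent) in each of the 9 libraries (bars, replicates 1 to 3 of control, TRIM28 knockdown and PARP1 knockdown). The IDH1 share shrinks from a mean of 37.1% in control to 14.1% in PARP1 knockdown, and SUCLG1 grows from 64.0% to 88.9%.

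The summed level of each route was set by a few abundant genes. Over the 19 glycolysis members it was 8637 ± 830 FPKM in control, 11406 ± 323 with TRIM28 silenced and 13431 ± 1083 with PARP1 silenced (SD, n = 3), with the 3 groups apart, and GAPDH alone held 3877 of the control sum. Without GAPDH the sums were 4761 ± 429, 6124 ± 211 and 7048 ± 466. The pentose phosphate sum was 474 ± 44.5, 584 ± 25.5 and 668 ± 32.3, and the TCA sum 530 ± 30.04, 599 ± 2.97 and 607 ± 8.45. As shares of all counts, which use neither length nor TMM factors, glycolysis took 3.78% ± 0.199, 4.37% ± 0.149 and 4.45% ± 0.11. The TCA route took 0.261% ± 0.00269, 0.250% ± 0.00601 and 0.213% ± 0.0216. The TMM-scaled TCA sum per length was thus higher in the knockdowns and its unscaled share of counts lower in PARP1 knockdown. TMM factors ran from 1.07 to 1.15 in control, from 0.978 to 1.02 with TRIM28 silenced and from 0.846 to 0.967 with PARP1 silenced. Both length and scaling therefore differ between the 2 measures, and the part of each was not tested.

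PARP1 and TRIM28 knockdown were also compared directly. Of the 47 members 7 were higher and 12 lower in PARP1 knockdown, against 11.9% and 13.2% of all genes tested (25.1% in either direction), and the groups did not overlap for 30 members against 39.4% of all genes. By library totals the counts were 3 and 15, and with length and GC trends removed they were 8 and 5. In glycolysis PFKL, TPI1, ALDOA and SLC16A3 were higher and HK1, HK2, PFKM, LDHA and LDHB lower. In the pentose phosphate pathway PGLS was higher. In the TCA route PC and IDH3G were higher and CS, ACO1, IDH1, IDH3A, SUCLG2, FH and ME2 lower. With the trends removed, HK2, PFKM, TPI1, LDHA, LDHB, PGLS, CS, IDH3G, FH and ME2 no longer passed, and PGK1, ENO1, TKT and SUCLG1 were higher. Besides IDH3A, the lower members with the smallest adjusted p were ACO1 at -0.99 ± 0.18 and ME2 at -0.85 ± 0.18 (edgeR adjusted p = 6.48e-04 and 0.00214), and the higher members PGLS and PFKL at 0.65 ± 0.15 and 0.60 ± 0.14 (edgeR adjusted p = 0.00335 and 0.00376). The 7 calls that stood in each fit with 1 library left out were HK1, PFKL, PGLS, ACO1, IDH3A, SUCLG2 and ME2. Without PARP1 replicate 3 the counts were 3 higher and 6 lower, without TRIM28 replicate 1 they were 2 and 7, and without PARP1 replicate 1 the higher count was 12.

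**Figure D4:**
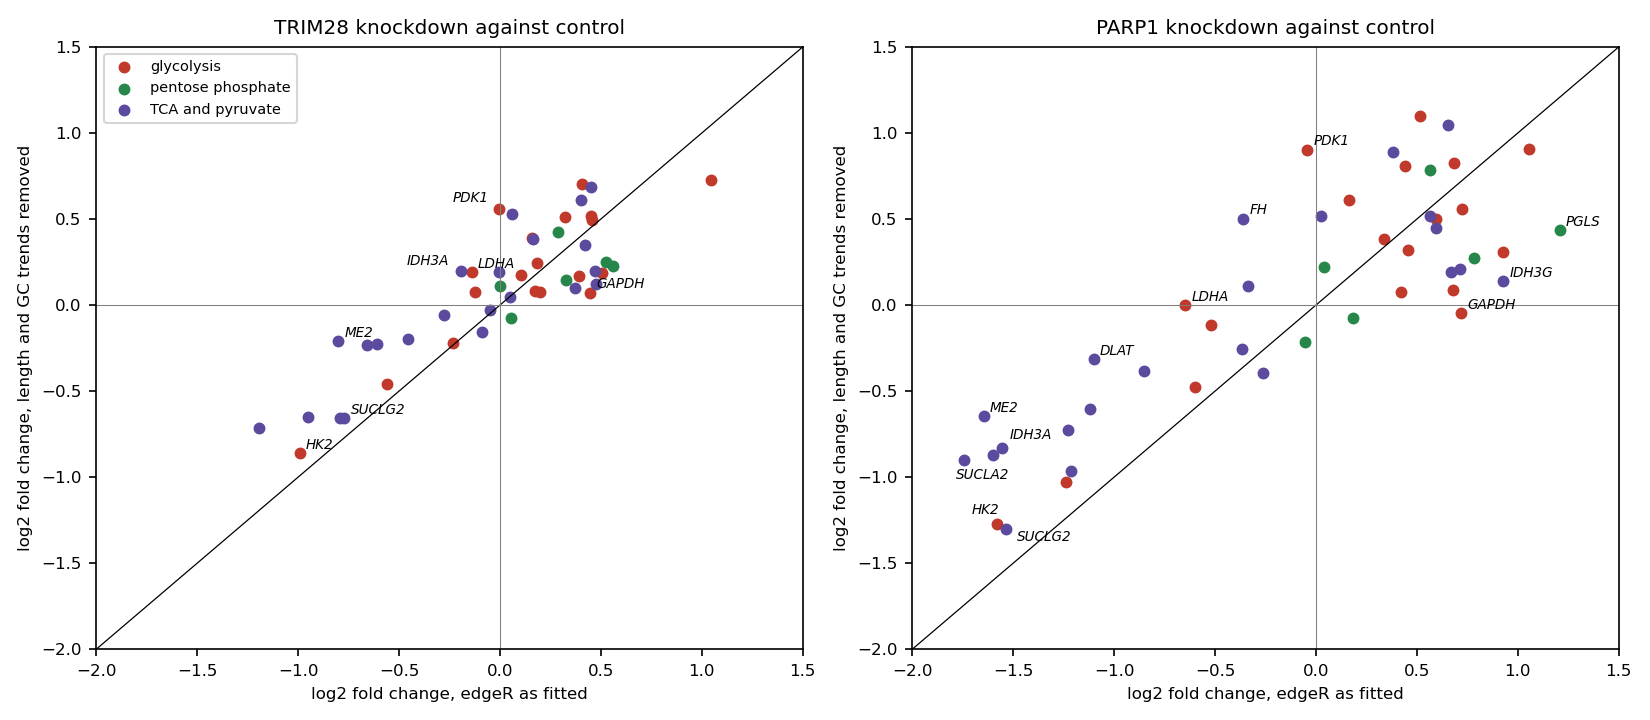
Log2 fold change with length and GC trends removed (y axis) against the value as fitted (x axis) for the 47 members in TRIM28 knockdown (left) and PARP1 knockdown (right), with the 3 routes in colour and equality as a line. GAPDH moves from 0.72 to -0.05 and LDHA from -0.65 to -0.00 in PARP1 knockdown, while HK2 moves from -1.58 to -1.28 and SUCLG2 from -1.53 to -1.30.

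Other genes of these pathways, from a list of 59 transporters, regulators and further enzymes, changed in both directions, with 54 tested. In TRIM28 knockdown 6 rose (11.1%) and 11 fell (20.4%), near the 10.3% and 17.5% of all genes tested. In PARP1 knockdown 15 rose (27.8%), near the 27.1% of all genes, and 23 fell (42.6%), against 32.2%. The medians were -0.01 and -0.24, against -0.02 and -0.07 over all genes. The pyruvate carrier subunit MPC2 rose in both (0.46 ± 0.14 and 0.75 ± 0.14), and MPC1, its partner, rose in TRIM28 knockdown (0.64 ± 0.19). SDHC, a membrane anchor of succinate dehydrogenase, rose by 0.54 ± 0.13 in TRIM28 knockdown. The citrate carrier SLC25A1 and the oxoglutarate carrier SLC25A11 rose by 0.84 ± 0.14 and 0.81 ± 0.14 in PARP1 knockdown. PDPR, a regulator of pyruvate dehydrogenase phosphatase, fell by 1.03 ± 0.19 and 2.01 ± 0.20 (edgeR adjusted p = 2.66e-04 and 1.29e-08). SLC16A1, the lactate carrier MCT1, fell by 0.93 ± 0.17 and 1.74 ± 0.18, opposite to the exporter SLC16A3 in PARP1 knockdown. The glucose transporter SLC2A3 fell by 1.36 ± 0.16 in PARP1 knockdown. FBP1, PKLR, TKTL1 and ME3 were among the genes too low to be tested.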

How the data were processed

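Polyadenylated RNA of 9 libraries was sequenced after a directional library kit, per the labels' protocols. The submitters' processing notes name the GRCh38 build, featureCounts 2.0.1, the aligner STAR 2.7.9a, read trimming by Trim Galore 0.6.6 and DESeq2 1.30.0, with no annotation release or strand setting. The authors deposited raw counts per gene, which are whole numbers and not normalized, per the file headers. They also deposited FPKM values, and 0 of these departed beyond rounding from the count times a constant over exon length and library total. No column was left unmapped.

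The 9 libraries entered 1 edgeR 4.0.16 fit in R 4.3.3 (quasi-likelihood test, TMM factors, filterByExpr, no covariates, 6 residual degrees of freedom), two-sided, with a threshold of 0.05 after Benjamini-Hochberg adjustment over 13562 genes. The design allowed for counts or FPKM, and counts set the test. Printed levels are the counts over exon length, scaled by TMM. GC content came from the longest GENCODE transcript and covered 13390 genes (98.7%). Trends were removed as lowess offsets with a span of 0.3. Shares used exact permutation tests over libraries. Alternatives were DESeq2 1.42.0, its size factors, library totals, limma 3.58.1 on log2(FPKM + 1) or log2(FPKM + 0.1) with a mean FPKM of at least 0.5 or no filter, no count filter, 2 groups alone, trend removal, a replicate block and each library left out. The edgeR, DESeq2 and limma steps were first tested on simulated counts.

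The members and lists were chosen with earlier results of these data known. All 47 genes were accounted for. Full values are given for the members with the smallest adjusted p, 2 per route and direction in each knockdown, and for each isoenzyme step, and up to 3 other pathway genes are named per direction and knockdown. GAPDH, PGK1, SLC16A3, TKT, DLAT, DLD, PC, CS and ACO1 were given per library after their values were seen. A few genes of the wider lists are not reported here.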

Additional observations from a re-analysis of the deposited data

How the results depend on the processing

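By library totals, rises in TRIM28 knockdown numbered 3 in glycolysis and 1 in the TCA route, rises in PARP1 knockdown 6 in glycolysis and 4 in the TCA route, falls in the pentose phosphate pathway 1, and members higher in PARP1 than in TRIM28 knockdown 3. With limma on log2(FPKM + 1) and on log2(FPKM + 0.1), TCA rises in TRIM28 knockdown numbered 1 with either pseudocount, glycolysis rises in PARP1 knockdown 6, pentose phosphate falls there 1 and members higher in the direct comparison 3. The smaller pseudocount left 1 glycolysis fall in TRIM28 knockdown. Without the FPKM filter limma counted, in TRIM28 knockdown, 0 rises and 1 fall in glycolysis, 1 pentose phosphate rise, 1 TCA rise and 3 TCA falls. In PARP1 knockdown it then counted 5 glycolysis rises, 1 pentose phosphate fall and 4 TCA rises, and 0 higher and 1 lower in the direct comparison. Pentose phosphate rises in TRIM28 knockdown numbered 4 with DESeq2 and 4 with the 2 groups alone. Removing the length trend left 1 glycolysis fall and 4 TCA falls in TRIM28 knockdown. Removing length and GC trends left 3 TCA falls there, 3 glycolysis falls in PARP1 knockdown and 5 lower in the direct comparison. Pentose phosphate rises in TRIM28 knockdown then numbered 1, which was TKT, a member that had not passed as fitted. The cause was not tested.

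Of the members that passed before or after the change, signs turned for 5 in PARP1 knockdown, and signs that turned without passing either way, as for GPI, RPIA and RPE, are not counted. MDH1 stood at -0.30 by library totals and by limma with a pseudocount of 1, filtered or not, and at -0.31 with 0.1. FH stood at 0.14 without the length trend and 0.50 without both trends, PDK1 at 0.59 and 0.90. GAPDH stood at -0.049 and PDHA1 at 0.11 without both.

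Leaving out 1 library gave, in TRIM28 knockdown, 1 to 7 glycolysis rises, 1 to 2 glycolysis falls, 1 to 4 pentose phosphate rises, 0 to 6 TCA rises and 6 to 8 TCA falls. In PARP1 knockdown it gave 10 to 11 and 5 in glycolysis, 3 pentose phosphate rises, and 6 to 7 and 10 to 14 in the TCA route, and 2 to 12 higher and 6 to 17 lower in the direct comparison. Pentose phosphate rises in TRIM28 knockdown numbered 1 where control replicate 1 was left out, and 4 where control replicate 3 or PARP1 replicate 1 was. Glycolysis falls there numbered 1 without control replicate 1 or 2 or TRIM28 replicate 1 or 2. With the replicate number as a block, TRIM28 knockdown counted 7 and 2 in glycolysis, 3 and 0 in the pentose phosphate pathway and 6 and 8 in the TCA route. PARP1 knockdown with the block counted 11 and 5, 3 and 0, and 7 and 13, and the direct comparison 8 higher and 14 lower. Whether the replicate numbers mark a pairing is not known here. Deviations of same-numbered libraries correlated from -0.08 to 0.14 and those of other pairs from -0.16 to 0.12. Of the 9 libraries 4 correlated best with their own number. Deviations from means of 3 libraries cannot decide the question.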

Other observations

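With 3 libraries per group, a share of isoenzymes cannot reach an exact p below 0.1. SUCLA2, PDK1 and ALDOC lay below 1 FPKM in each library, and their errors are the widest of the set. Without a known strand setting, the values of DLD, IDH3G, SUCLA2, SLC16A3 and ALDOC may hold reads of the genes that overlap them, and ENO2 shares bases with LRRC23, whose counts were 19.0% of its own. Transcript levels say nothing here of enzyme activity or flux.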
